A study of Mus musculus with 10 samples.

Results

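CD11c-eYFP+ cells sorted from the stroke-injured brain of reporter mice were compared with microglia from the same kind of injured tissue. The comparison rests on 7 of the 10 libraries of the series, 4 of CD11c-eYFP+ cells and 3 of microglia, chosen by their sample names and labels, and it covers all 15151 genes that passed a filter on low counts out of 28585 in the table. All of these animals were female mice of 13 to 14 weeks, and each library was made from the ischemic, ipsilateral hemisphere. The CD11c-eYFP+ cells came from Tg(Itgax-Venus)1Mnz mice, in which the promoter of Itgax, the CD11c gene, drives a yellow fluorescent protein, and they are called transgenic CD11c cells here (replicates 23, 24, 26 and 27). The microglia came from CX3CR1CreERT2:Rosa26-tdT mice, in which a drug-inducible Cre in the Cx3cr1 gene switches on a red fluorescent protein (replicates 39, 40 and 41). Both populations were sorted by reporter alone, so a cell of either sort is defined by Itgax or Cx3cr1 activity and not by a surface stain, and how the Cre was induced is not stated in the labels. The other 3 libraries, CD11c-eYFP+ cells of C57BL/6 mice of 15 to 16 weeks that were joined by parabiosis to such transgenic mice, entered the fits only to help estimate the spread. Transgenic replicates 23 and 24 carry library numbers close to those of the microglia, while replicates 26 and 27 carry numbers far from these, and the labels do not say what the numbers stand for. Counts over gene lists are therefore given for each pair as well and levels for each library, and for replicates 26 and 27 whatever the numbers mark and any difference between mice cannot be told apart.

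Microglia are the resident macrophages of the brain parenchyma. They arise from yolk sac precursors, depend on the growth factor receptor Csf1r, and are known by a signature of genes such as P2ry12, Tmem119 and Sall1. CD11c is an integrin chain abundant on conventional dendritic cells, which take up antigen and show it to T cells on MHC class II, and it is also found on monocyte-derived cells and on a subset of activated microglia. After a stroke, monocytes and dendritic cells enter the injured hemisphere and mingle with activated microglia, so a CD11c reporter can mark cells of several origins.

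Libraries held 31534625 to 33605252 counts in microglia and 34982960 to 41730688 in transgenic CD11c cells. Multidimensional scaling placed microglia at -3.04 to -2.94 on its first dimension, transgenic libraries at -0.625 to 0.69 and parabiotic libraries at 2.74 to 3.06. Transgenic replicates 23 and 24 were close to each other, with a chi-square of 18.8 per degree of freedom. This measure was taken over tested genes, those with few counts aside. It rises with depth, which was greatest in replicates 26 and 27. Every other transgenic pair, replicates 26 and 27 included, gave 277 to 352. The microglia pairs gave 44.8 to 116. Replicates 26 and 27 are thus no closer to each other than to the first pair. Mitochondrial transcripts took 0.816% and 0.624% of the counts in replicates 26 and 27 and 0.214% to 0.477% in all other libraries. The labels do not say whether replicates are separate mice, so p-values measure the spread between these libraries, estimated for each gene over all groups of a fit. Levels are given as CPM, read counts scaled by TMM to library size, listed in the order of microglia replicates 39, 40 and 41 and then of transgenic replicates 23, 24, 26 and 27. A fold change is a log2 value with its SE, estimated by edgeR, whose p was adjusted over all tested genes and held to a threshold of 0.05. The SE of a pair does not measure that pair's own spread. Against microglia its median over genes was 0.2773 for replicates 23 and 24 and 0.2778 for replicates 26 and 27, despite their unlike chi-squares.

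The reporter genes were checked first. Itgax stood at 22.6, 56.9 and 53.7 CPM in microglia and at 349, 318, 114 and 117 CPM in transgenic CD11c cells, so every transgenic library lay above every microglia library (log2 fold change 2.34 ± 0.47, adjusted p = 0.00871). Its excess over microglia was 2.91 ± 0.32 for replicates 23 and 24 and 1.38 ± 0.31 for replicates 26 and 27. Cx3cr1, the fractalkine receptor of microglia, stood at 1779, 1858 and 1581 CPM in microglia and at 2026, 2794, 1746 and 268 CPM in transgenic CD11c cells. The groups overlapped, replicates 23 and 24 lay above all microglia and replicate 27 far below, and the comparison was not called (-0.03 ± 0.54, adjusted p = 0.981). Markers of microglia were present in the transgenic libraries: Sall1, a transcription factor that among brain macrophages is a hallmark of microglia, stood at 467, 375 and 318 CPM in microglia and at 139, 165, 85.6 and 26.1 CPM in transgenic CD11c cells, against at most 0.395 CPM in a parabiotic library. The summed level of 8 defining microglial markers was 17830 to 20480 CPM in microglia, 10880 and 11090 CPM in replicates 23 and 24, 17020 CPM in replicate 26 and 5888 CPM in replicate 27. The sum over 7 defining markers of conventional dendritic cells was 11.9 to 17.5 CPM in microglia, 468 and 476 CPM in replicates 23 and 24, and 104 and 174 CPM in replicates 26 and 27. Napsa, chosen with earlier results of these data known, made up 124, 128, 35.3 and 97.3 CPM of that sum in replicates 23, 24, 26 and 27. Each of the 7 markers but Zbtb46 lay above every microglia library in all 4 transgenic libraries. Zbtb46 was at 5.36 and 6.7 CPM in replicates 26 and 27, against 5.6 to 8.8 CPM in microglia. Markers of both kinds of cell were thus measured in all 4 transgenic libraries.  In sorted bulk samples, fewer cells of a type and less RNA per cell cannot be told apart.

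**Figure D1:**
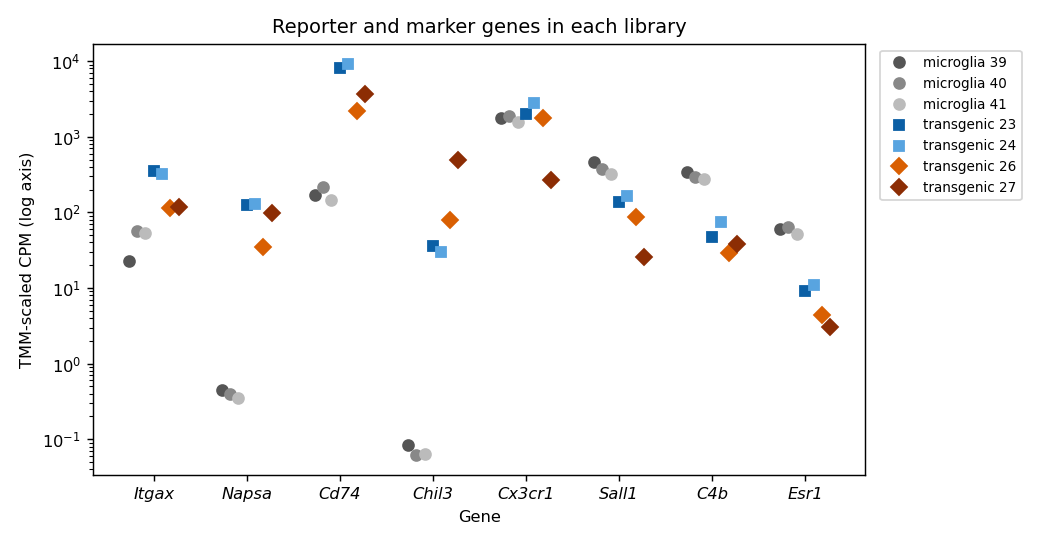
TMM-scaled CPM (log axis) of 8 genes in the 3 microglia libraries (circles), transgenic replicates 23 and 24 (squares) and transgenic replicates 26 and 27 (diamonds), with 1 point per library. Napsa, Cd74, Chil3 and Itgax lie above microglia in all 4 transgenic libraries, C4b, Esr1 and Sall1 lie below, and the groups overlap in Cx3cr1, with replicates 23 and 24 above and replicate 27 below all microglia.

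Across all 4 transgenic libraries 1345 genes were higher than in microglia (8.88% of the genes tested) and 725 were lower (4.79%), and the median log2 fold change of all genes was 0.02. Replicates 23 and 24 alone gave 1023 higher (6.75%) and 280 lower genes (1.85%), and replicates 26 and 27 gave 3380 higher (22.3%) and 2567 lower (16.9%). Between both pairs, 1187 genes were higher (7.83%) and 1243 lower (8.2%) in replicates 26 and 27. The counts of a gene list are to be read against these shares, and its counts in the pairs are given in parentheses, those higher first and those lower next. The counts of lower genes depended on single libraries. With 1 library left out the number lower in all 4 was 165 without microglia replicate 39, 212 without replicate 40 and 480 without replicate 41, and the number higher was 581 and 563 without replicates 39 and 40. For replicates 23 and 24 the number lower was 97 and 96 without microglia replicates 39 and 40, 21 and 20 without transgenic replicates 23 and 24, and 996 and 846 without transgenic replicates 26 and 27. The number higher for that pair was 644 without microglia replicate 40, 527 and 563 without transgenic replicates 23 and 24, and 1590 without replicate 27. Below, a call is said to end where its adjusted p no longer passed the threshold with 1 library left out or under another setting. The 8 genes with the largest positive fold changes among those with at least 20 CPM and no overlap of libraries were Chil3, B3gnt5, Cdh1, P2ry10, Napsa, Cd24a, Gpr171 and Il1r2. Those with the largest negative fold changes were Esr1, Upk1b, Adrb1, C4b, Crybb1, Cdh23, Myo18b and Slc2a5.

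Chil3 (ENSMUSG00000040809, chr3:106147554-106167564 on GRCm38, minus strand), a chitinase-like protein secreted by myeloid cells, was nearly absent from microglia at 0.0847, 0.0614 and 0.0633 CPM and reached 35.8, 29.7, 78.3 and 499 CPM in transgenic CD11c cells (11.09 ± 1.49, adjusted p = 0.000979). Replicate 27 was the highest by a wide margin. Napsa (ENSMUSG00000002204, chr7:44572380-44586862, plus strand), an aspartic protease of the endosome, stood at 0.452, 0.399 and 0.348 CPM in microglia and at 124, 128, 35.3 and 97.3 CPM in transgenic CD11c cells (7.89 ± 0.52, adjusted p = 1.98e-05). The adhesion molecule Cdh1 (E-cadherin) rose from 0, 0.0614 and 0.0633 to 39, 34.5, 4.68 and 19.9 CPM (9.13 ± 0.98) and the decoy receptor Il1r2, which binds interleukin 1 without signalling, from 0.904, 0.737 and 0.918 to 204, 188, 21.9 and 196 CPM (7.48 ± 0.79). P2ry10, a receptor for lysophospholipids, was at 105, 95.6, 18 and 113 CPM against 0.158 to 0.368 CPM (8.14 ± 0.73). Gpr171, an orphan receptor, stood at 154, 128, 30.9 and 200.1 CPM against less than 1 CPM in each microglia library (7.55 ± 0.67). B3gnt5, an enzyme of glycolipid synthesis, stood at 41.1, 32.8, 5.06 and 91.3 CPM against 0 to 0.154 CPM (9.17 ± 1.18). In Napsa, Cdh1, Il1r2, P2ry10, Gpr171 and B3gnt5 alike, replicate 26 was the lowest transgenic library and still lay above all microglia. Cd24a, a small glycoprotein of immature haematopoietic cells, was at 41.7, 38.2, 35.1 and 125 CPM against 0.285 to 0.338 CPM (7.58 ± 0.60), highest in replicate 27. Chil3 and B3gnt5 missed the threshold in limma-voom (adjusted p of up to 0.0803).

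Esr1 (ENSMUSG00000019768, chr10:4611593-5005614, plus strand), the estrogen receptor alpha, fell from 60.1, 63.6 and 51.6 CPM in microglia to 9.1, 10.9, 4.4 and 3.04 CPM (-3.09 ± 0.40, adjusted p = 0.000765), with -2.55 ± 0.28 in replicates 23 and 24 and -3.97 ± 0.31 in replicates 26 and 27. C4b (ENSMUSG00000073418, chr17:34728380-34743882, minus strand), a complement component with a near-identical neighbour C4a that could share its reads, fell from 345, 290.2 and 277 to 47.1, 74.2, 28.8 and 38.7 CPM (-2.69 ± 0.27, adjusted p = 0.00017). In both genes all transgenic libraries lay well below all microglia. The beta-1 adrenergic receptor gene Adrb1 was at 4.83, 5.77, 2.3 and 3.43 CPM against 13.2 to 41.7 CPM (-2.75 ± 0.45) and Crybb1, a crystallin gene of unclear role in microglia, at 37.6, 42.2, 24.7 and 7.11 against 109 to 213 CPM (-2.43 ± 0.48). The fructose transporter Slc2a5, a gene much higher in microglia than in other macrophages, stood at 72.6, 90.2, 36.9 and 8.5 against 188 to 269 CPM (-2.20 ± 0.61, adjusted p = 0.0362), with -1.56 ± 0.56 (adjusted p = 0.134) in replicates 23 and 24 and -3.40 ± 0.62 in replicates 26 and 27. Cdh23, a cadherin, stood at 19.1, 16.9, 5.74 and 3.85 against 37.5 to 69.6 CPM (-2.32 ± 0.49) and Upk1b, a tetraspanin, at 3.66, 6.47, 1.67 and 1.68 against 18 to 32.7 CPM (-2.85 ± 0.56). Myo18b, an unconventional myosin, was at 6.0, 5.74, 3.64 and 1.36 against 16.4 to 25.5 CPM (-2.40 ± 0.43). Replicate 27 was the lowest library in Esr1, Crybb1, Slc2a5, Cdh23 and Myo18b. Crybb1 lost significance without microglia replicate 39 (adjusted p = 0.0509). Slc2a5 was no longer called without microglia replicate 39, 40 or 41 or transgenic replicate 26 or parabiotic replicate 15 (adjusted p = 0.0557 to 0.121). Cdh23 lost the call without microglia replicate 39 or 40 (adjusted p = 0.0516 to 0.0535). Upk1b lost significance without microglia replicate 40 (adjusted p = 0.0506). Slc2a5 missed the threshold without the low-count filter or in the fit of the 7 libraries alone (adjusted p of up to 0.133).

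Genes of MHC class II are known to share a promoter layout upstream of the start of transcription, an X box bound by the RFX complex followed by a Y box bound by NF-Y, to which the transactivator Ciita is recruited. The upstream sequences of H2-Aa, H2-Eb1, H2-DMb2, H2-Oa and H2-Ob are shown because these genes were lower in transgenic replicates 26 and 27 than in 23 and 24. H2-DMb2, H2-Oa and H2-Ob were chosen after their values were seen. Each is the 110 bases that end just before the start of transcription in RefSeq on GRCm38.p6, read 5′ to 3′ on the strand of the gene. Capitals mark the Y box core (ATTGG, or CCAAT where it lies on the other strand) and a core of the X box (AGCAAC). The windows are chr17:34287824-34287933 (minus strand), chr17:34305757-34305866 (plus), chr17:34145139-34145248 (plus), chr17:34092269-34092378 (plus) and chr17:34238795-34238904 (plus).
H2-Aa: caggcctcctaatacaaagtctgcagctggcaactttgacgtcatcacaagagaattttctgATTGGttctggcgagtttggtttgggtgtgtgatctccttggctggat
H2-Eb1: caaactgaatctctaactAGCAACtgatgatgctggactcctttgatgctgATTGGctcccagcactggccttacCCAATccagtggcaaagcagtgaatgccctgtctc
H2-DMb2: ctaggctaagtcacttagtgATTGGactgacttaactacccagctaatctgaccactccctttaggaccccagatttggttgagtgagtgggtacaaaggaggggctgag
H2-Oa: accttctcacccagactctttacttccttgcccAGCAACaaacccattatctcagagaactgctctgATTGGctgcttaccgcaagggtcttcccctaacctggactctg
H2-Ob: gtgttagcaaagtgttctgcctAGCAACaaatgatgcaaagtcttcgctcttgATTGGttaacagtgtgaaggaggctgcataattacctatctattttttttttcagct
Of 9 MHC class II chain genes (H2-A, H2-E, H2-DM and H2-O), 8 had a window in the table. Within 250 bases upstream and on either strand, ATTGG occurred in 8 of these 8, against 33.85% of all 32851 windows of that length. The longer CTGATTGG occurred in 4 of 8 against 3.83%, and AGCAAC in 4 of 8 against 12.2%. ATTGG lies within CTGATTGG, so these counts overlap. A gene was counted if any of its windows held the letters, whereas the percentages are shares of single windows. The matches describe the letters of these windows and were not measured as binding.

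Of the 17 MHC class II genes 8 were higher in all 4 transgenic libraries together (8.88% of all genes tested) and 0 were lower (4.79%) (9 and 0 in replicates 23 and 24, 9 and 1 in replicates 26 and 27), with a median log2 fold change of 0.89. Cd74 (ENSMUSG00000024610), the invariant chain that guides class II molecules to the endosome, rose from 170.2, 214 and 146 to 8022, 9294, 2197 and 3644 CPM (5.03 ± 0.51, adjusted p = 0.000181). H2-Aa, the alpha chain with the first promoter shown, rose from 29.4, 43.3 and 22.5 to 2748, 2630.2, 789.7 and 1305 CPM (5.88 ± 0.50), and H2-Eb1, with the next one, from 24, 36.7 and 19.5 to 2498, 2483, 600 and 981 CPM (5.94 ± 0.58). H2-Ab1 stood at 4578, 4709.9, 1057 and 1918 against 48.1 to 75.3 CPM (5.71 ± 0.56). In each of these genes replicates 23 and 24 were nearly equal and highest, replicate 26 was the lowest transgenic library, and all 4 lay far above microglia. Ciita itself stood at 0.734, 0.982 and 0.791 CPM in microglia, 89 and 94.3 CPM in replicates 23 and 24, and 16.8 and 9.86 CPM in replicates 26 and 27, a fold change of 6.77 ± 0.27 for the first pair and 3.99 ± 0.26 for the second. Replicates 26 and 27 against 23 and 24 gave -2.78 ± 0.26 (adjusted p = 0.00164), and 11 of the 17 members were lower (8.2% of all genes) and 0 higher (7.83%) in that comparison, with a median of -1.36. H2-DMb2, a chain of the peptide-loading molecule, stood at 41.6 and 38.7 and at 10.3 and 8.94 CPM in the pairs, against 6.5, 5.07 and 5.41 CPM in microglia. It was higher in each pair (2.83 ± 0.19 and 0.76 ± 0.19). The chains of H2-O, which restrains peptide loading by H2-DM, behaved differently. H2-Oa stood at 14, 17.7 and 15.1 CPM in microglia and 48.7, 47.4, 12.7 and 7.06 CPM in transgenic CD11c cells, higher than microglia in replicates 23 and 24 (1.62 ± 0.25, adjusted p = 0.00267) and not called in 26 and 27 (-0.66 ± 0.26, adjusted p = 0.0692). H2-Ob stood at 30.7, 37.1 and 34.2 and 65.9, 65.2, 33 and 13 CPM, with neither pair called against microglia (0.95 ± 0.33, adjusted p = 0.121, and -0.56 ± 0.34, adjusted p = 0.216). Between the pairs the differences were -1.36 ± 0.32 for H2-Aa, -1.66 ± 0.32 for H2-Eb1, -2.06 ± 0.21 for H2-DMb2, -2.28 ± 0.29 for H2-Oa and -1.51 ± 0.37 for H2-Ob. Between the pairs, H2-Aa and H2-Eb1 were no longer called without transgenic replicate 23 or 24 (adjusted p = 0.0631 to 0.104). H2-Aa missed the threshold between the pairs in the fit of the 7 libraries alone (adjusted p = 0.0562). Whether the differences of H2-Oa and H2-Ob hold with 1 library left out or under another setting was not examined.

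Core genes of conventional dendritic cells had the highest median of all lists with more than 1 tested gene. Of 27 members 25 were tested, 16 were higher, 0 lower and 9 not called, with a median log2 fold change of 4.4 over all 4 libraries, 4.94 in replicates 23 and 24 and 3.02 in replicates 26 and 27. In replicates 23 and 24, 16 members were higher (6.75% of all genes) and 0 lower (1.85%), and in replicates 26 and 27, 17 were higher (22.3%) and 3 lower (16.9%). Flt3, which binds a growth factor of dendritic cells, stood at 1.72, 1.63 and 0.538 CPM in microglia and 89.4, 85.8, 17.9 and 30.6 CPM in transgenic CD11c cells (5.42 ± 0.66, adjusted p = 0.000549). Slamf7, an adhesion receptor of the SLAM family, rose from 3.11, 3.22 and 4.31 to 120.4, 118, 52 and 53.8 CPM (4.60 ± 0.37), and Dpp4 (CD26), a cell surface peptidase, from 0.311, 0.522 and 0.222 to 97.6, 89.8, 16.7 and 23 CPM (7.32 ± 0.80). Kit, the stem cell factor receptor, was at 89.3, 79.8, 6.25 and 19.1 CPM against 0.127 to 0.819 CPM (6.58 ± 1.00). The transcription factor Zbtb46, restricted among immune cells mostly to conventional dendritic cells, stood at 8.81, 7.06 and 5.63 CPM in microglia, 23.2 and 26.6 CPM in replicates 23 and 24 and 5.36 and 6.7 CPM in replicates 26 and 27. It was called only for the first pair (1.79 ± 0.24, adjusted p = 0.00117), while the second was not (-0.25 ± 0.25, adjusted p = 0.449), and the pairs differed from each other by -2.04 ± 0.27 (adjusted p = 0.00338). Between the pairs 14 of the 25 tested members were lower in replicates 26 and 27 (8.2% of all genes) and 1 was higher (7.83%). The higher member was Id2, a repressor of other lineage factors, at 449.7 and 393 and 748 and 1093 CPM (1.13 ± 0.22). The differences of Slamf7 (-1.17 ± 0.17) and Dpp4 (-2.24 ± 0.26) between the pairs kept their call without each single library. Those of Flt3 and Kit were -1.85 ± 0.37 and -2.73 ± 0.52. Between the pairs, Id2, Flt3 and Kit lost the call without transgenic replicate 23 or 24 (adjusted p = 0.0614 to 0.104). Kit missed the threshold in limma-voom (adjusted p = 0.0544).

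Genes of both dendritic cell subsets were called. For cDC1, which present antigens of dead cells to CD8 T cells, 7 of 18 tested members were higher and 1 lower, with 10 (6.75% of all genes) and 0 (1.85%) in replicates 23 and 24 and 7 (22.3%) and 4 (16.9%) in replicates 26 and 27. Their chemokine receptor gene Xcr1 stood at 1.3, 2.0 and 1.46 CPM in microglia and 23.2, 20.5, 9.03 and 2.48 CPM in transgenic CD11c cells (3.12 ± 0.67), and Clec9a, the receptor for exposed actin of dead cells, at 0.0565, 0.307 and 0.095 and 6.11, 6.55, 2.05 and 0.463 CPM (4.61 ± 0.94). Wdfy4, which cross-presentation needs, was higher than microglia in replicates 23 and 24 (327 and 268 against 151 to 166 CPM, 0.92 ± 0.17) and lower in replicates 26 and 27 (46.2 and 61.2 CPM, -1.55 ± 0.18). Tlr3, a sensor of double-stranded RNA that microglia also express, was the lower member (-1.40 ± 0.42). For cDC2, which present to CD4 T cells, 8 of 18 tested members were higher and 1 lower (10 and 1 in replicates 23 and 24, 7 and 3 in replicates 26 and 27). The lectin gene Cd209a stood at 0.593, 2.18 and 1.52 CPM in microglia and 63.8, 92.1, 14.9 and 5.94 CPM in transgenic CD11c cells (4.95 ± 0.97), and Epcam at 0.0282, 0.0614 and 0.0633 and 19.9, 18.4, 4.73 and 1.9 CPM (7.70 ± 1.05). Clec10a was higher than microglia in replicates 23 and 24 (23.4 and 30.5 against 3.14 to 5.65 CPM, 2.67 ± 0.31), while replicates 26 and 27 stood at 4.78 and 4.51 CPM (0.14 ± 0.31, adjusted p = 0.756). Itgam (CD11b), shared by microglia, fell in all 4 libraries (426, 437, 357 and 354 against 654 to 691 CPM, -0.78 ± 0.14). Subset genes of each kind were lower in replicates 26 and 27 than in 23 and 24. There 8 of the 18 cDC1 and 6 of the 18 cDC2 members were called lower (8.2% of all genes) and 0 higher (7.83%). Xcr1 lost significance without microglia replicate 39, 40 or 41 (adjusted p = 0.0515 to 0.0747). Clec9a and Cd209a were no longer called without microglia replicate 39 (adjusted p = 0.0515 to 0.0619). Tlr3 lost the call without microglia replicate 39, 40 or 41 or transgenic replicate 23 or parabiotic replicate 3, 11 or 15 (adjusted p = 0.0538 to 0.168). For replicates 23 and 24, Wdfy4 lost significance without transgenic replicate 23 (adjusted p = 0.109). Xcr1, Clec9a and Epcam missed the threshold in limma-voom (adjusted p of up to 0.0876). Cd209a missed the threshold in limma-voom or without the low-count filter (adjusted p of up to 0.068). Tlr3 missed the threshold without the low-count filter or in the fit of the 7 libraries alone (adjusted p of up to 0.102).

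Of 25 tested genes of dendritic cell maturation and migration, 10 were higher, 0 lower and 15 not called (12 and 0 in replicates 23 and 24, 12 and 3 in replicates 26 and 27). Ccr7, the receptor that leads dendritic cells to lymph nodes, stood at 4.58, 2.27 and 2.34 CPM in microglia and 139, 117, 19.6 and 30.2 CPM in transgenic CD11c cells (4.63 ± 0.71, adjusted p = 0.00214), and Ccl22, a chemokine that draws regulatory T cells, at 1.3, 1.44 and 0.728 and 22.4, 21.9, 7.08 and 12.4 CPM (3.78 ± 0.45). Both were lower in replicates 26 and 27 than in 23 and 24 (-2.36 ± 0.36 and -1.19 ± 0.33), as were 7 of the 25 in all (8.2% of all genes). Tmem123, a glycoprotein of mature dendritic cells, stood at 396, 397, 301 and 434 CPM against 154, 151 and 178 CPM (1.25 ± 0.18). Between the pairs, Ccl22 was no longer called without transgenic replicate 23, 24 or 26 or parabiotic replicate 3 or 15 (adjusted p = 0.0513 to 0.161). Ccl22 missed the threshold between the pairs in the fit of the 7 libraries alone (adjusted p = 0.087).

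**Figure D2:**
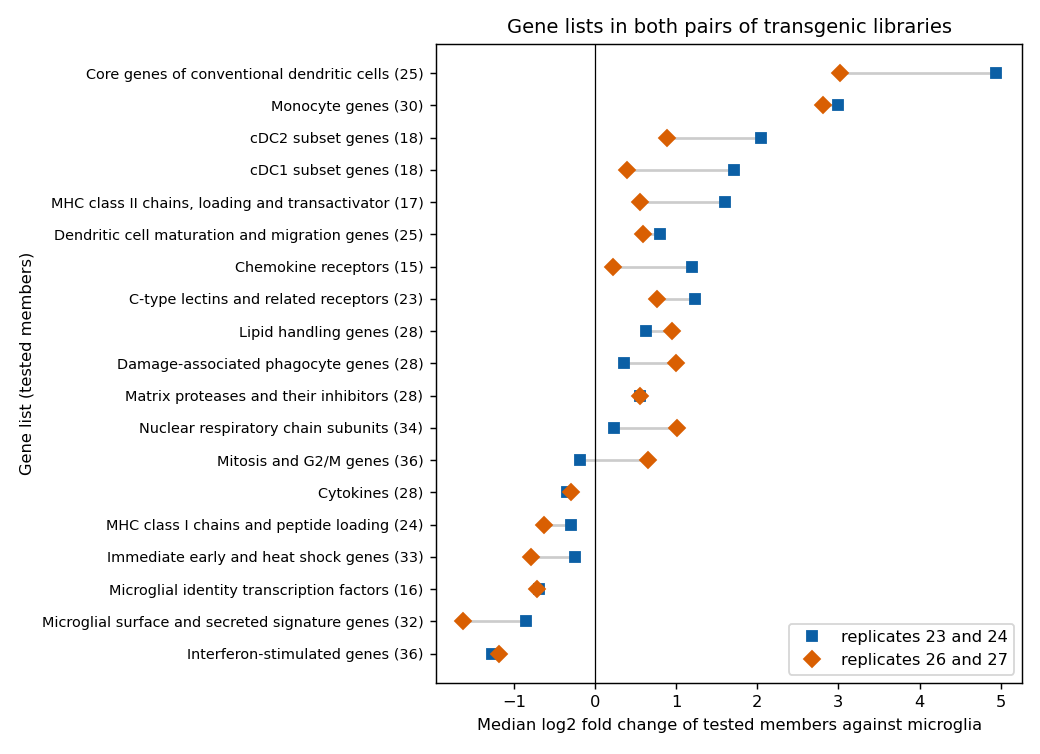
Median log2 fold change against microglia of the tested members of 19 gene lists, with the number tested in brackets, in transgenic replicates 23 and 24 (squares) and in replicates 26 and 27 (diamonds), which share the microglia libraries as controls. Core dendritic cell genes have medians of 4.94 and 3.02, and microglial surface genes -0.85 and -1.63.

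Monocyte genes were high in both pairs. Of 30 members 21 were higher, 0 lower and 9 not called (20 and 0 in replicates 23 and 24, 23 and 2 in replicates 26 and 27), with medians of 3.0 in replicates 23 and 24 and 2.81 in replicates 26 and 27. Ly6c2, the marker of classical monocytes, stood at 0.113, 0.0921 and 0 CPM in microglia and 13.4, 8.28, 8.75 and 6.09 CPM in transgenic CD11c cells (6.96 ± 0.56, adjusted p = 5.87e-05), and Lyz2, the macrophage lysozyme, at 966, 1287 and 1305 and 8402, 8099.5, 10894 and 9114 CPM (2.94 ± 0.20, adjusted p = 2.04e-05). Neither differed between the pairs at the threshold (-0.54 ± 0.41, adjusted p = 0.399, and 0.28 ± 0.20, adjusted p = 0.382). Lyz2 has a close copy, Lyz1, at 6.03, 6.25, 10.8 and 11.9 CPM, that could share reads with it. Ccr2, which guides monocytes out of the marrow and is also found on dendritic cells, stood at 6.55, 7.21 and 6.39 CPM in microglia and 361, 477, 147 and 131 CPM in transgenic CD11c cells (5.37 ± 0.49, adjusted p = 0.000126). It was lower in replicates 26 and 27 than in 23 and 24 (-1.59 ± 0.18, adjusted p = 0.00226), and so was Plac8 (40.8 and 29.6 and 13.2 and 13.3 CPM against 3.32 to 5.03 CPM in microglia, -1.41 ± 0.21). Mgst1, a glutathione transferase, went the other way between the pairs, at 24.9 and 23.6 and then 51.9 and 109 CPM (1.73 ± 0.42). Between the pairs, Mgst1 lost the call without transgenic replicate 23 or 24 (adjusted p = 0.126 to 0.157). Mgst1 missed the threshold between the pairs without the low-count filter or in the fit of the 7 libraries alone (adjusted p of up to 0.0686).

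Among chemokine receptors 7 of 15 tested members were higher and 0 lower (7 and 0 in replicates 23 and 24, 6 and 1 in replicates 26 and 27). Besides Ccr2 and Ccr7 these included Ccr1, a receptor for inflammatory chemokines, at 34.1, 22.7 and 13.2 CPM in microglia and 192, 190, 92.4 and 469 CPM in transgenic CD11c cells (3.34 ± 0.53), and Cxcr4, which retains cells in the marrow, at 20, 21.2 and 33.3 and 178, 135, 124 and 333 CPM (2.95 ± 0.36). In both replicate 27 was the highest library. Of 25 integrin and adhesion genes 8 were higher and 5 lower (8 and 3 in replicates 23 and 24, 8 and 9 in replicates 26 and 27). Itgb7, a chain of the gut homing integrin, rose from 1.47, 1.57 and 0.348 to 134, 138, 25.5 and 64.3 CPM (6.31 ± 0.71), Cd44, the hyaluronan receptor, from 25, 29.8 and 38.8 to 173, 172, 105 and 281 CPM (2.55 ± 0.31) and Alcam, an adhesion molecule that engages CD6 on T cells, from 2.49, 1.78 and 2.56 to 67.6, 50.6, 19.8 and 43.7 CPM (4.32 ± 0.43). Icam1, the ligand of leukocyte integrins, fell from 906, 899 and 707 to 438, 444, 295 and 301 CPM (-1.18 ± 0.20). Of 23 C-type lectin genes tested 9 were higher and 0 lower (11 and 0 in replicates 23 and 24, 10 and 1 in replicates 26 and 27), among them Clec4n (Dectin-2) at 60.8, 61.8, 28.8 and 104 against 4.49 to 14.3 CPM (2.97 ± 0.51) and Clec7a (Dectin-1), a receptor for fungal glucans that activated microglia also express, at 697, 631, 718 and 617 against 185 to 374 CPM (1.23 ± 0.22). Clec12a, an inhibitory receptor, was at 71.6, 76.7, 81.5 and 19 CPM against 4.04 to 12.2 CPM (2.81 ± 0.52), lowest in replicate 27.

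Of 28 tested genes of matrix and clotting proteases and their inhibitors 11 were higher and 2 lower (9 and 1 in replicates 23 and 24, 12 and 4 in replicates 26 and 27). F7, the clotting factor that tissue factor activates, stood at 0, 0.0614 and 0.0633 CPM in microglia and 12.4, 13.9, 16.1 and 20.2 CPM in transgenic CD11c cells (8.48 ± 0.44, adjusted p = 2.88e-06). F10, its substrate, had 3 counts in all microglia libraries together and 10.1, 11.6, 6.33 and 49.3 CPM in transgenic CD11c cells, a ratio of 663 (95% counting interval 227 to 3216). Timp1, an inhibitor of matrix metalloproteinases, stood at 0.0847, 0.0921 and 0.127 and 3.38, 2.94, 1.9 and 12.8 CPM (5.66 ± 0.80), while the gelatinase Mmp2 was lower (43.6, 35.8, 29.6 and 12.5 against 91.1 to 113 CPM, -1.80 ± 0.32). Adam19, a sheddase of dendritic cells, was at 26.3 and 21.1 CPM in replicates 23 and 24 and 3.19 and 7.14 CPM in replicates 26 and 27, against 0.696 to 1.64 CPM (3.55 ± 0.67). F7, F10 and Timp1 were highest in replicate 27, and Adam19 was lower in the second pair than in the first (-2.20 ± 0.42). Between the pairs, Adam19 lost significance without transgenic replicate 23 or 24 (adjusted p = 0.0601 to 0.0675).

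Microglial genes were lower in transgenic CD11c cells but not absent. Of 16 microglial transcription factors 8 were lower and 0 higher, with a median log2 fold change of -0.71, and of 32 surface and secreted signature genes 19 were lower and 0 higher, with a median of -1.08. The median surface gene stood at 55.7% and 55.7% of the microglia mean in replicates 23 and 24, 44.7% in replicate 26 and 21.9% in replicate 27, and the median transcription factor at 60.8%, 60.6%, 58.1% and 49.6%. P2ry12, the purinergic receptor that directs microglial processes to injury, fell from 2114, 1965 and 1590.3 to 657, 763, 656 and 331 CPM (-1.65 ± 0.25, adjusted p = 0.00188). Csf1r, the receptor that keeps microglia alive, fell from 10791, 10047 and 9114 to 5177, 5603, 3503 and 2722 CPM (-1.23 ± 0.23), and the adhesion receptor Adgrg1, absent from most other macrophages, from 639, 601 and 429 to 172, 214, 108 and 50.1 CPM (-2.03 ± 0.38). Replicate 27 was the lowest library in each. Tmem119, of unknown function, stood at 834, 736, 725 and 276 CPM against 1787 to 1939.8 CPM (-1.54 ± 0.33), Siglech, a sialic acid receptor, at 281, 277, 124 and 35.1 CPM against 568 to 859 CPM (-2.08 ± 0.53) and Sall1 at -1.90 ± 0.46 (adjusted p = 0.0227). Other defining genes were not called in all 4. Gpr34, a lysophospholipid receptor, stood at 1039, 1249 and 1090.2 CPM in microglia and 543, 613, 999.9 and 139 CPM in transgenic CD11c cells (-0.97 ± 0.52, adjusted p = 0.22), and Fcrls, an Fc receptor-like protein, at 2247, 3311 and 4355 and 2311, 2441, 4218 and 1416 CPM (-0.35 ± 0.40). In both genes replicate 26 lay within the range of microglia or close to it and replicate 27 below it. Tmem119 was no longer called without microglia replicate 39 (adjusted p = 0.0539). Siglech lost the call without microglia replicate 39 or 40 or transgenic replicate 26 (adjusted p = 0.0522 to 0.097). Sall1 lost significance without microglia replicate 39 or 40 (adjusted p = 0.0709 to 0.0999). Siglech and Sall1 missed the threshold without the low-count filter or in the fit of the 7 libraries alone (adjusted p of up to 0.0963).

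The transcription factors Smad3, which relays TGF-beta signals, and Etv5, of the Ets family, were lower in all 4 libraries, Smad3 at 61.5, 60.1, 36 and 25.9 CPM against 97.3 to 114 CPM (-1.18 ± 0.27) and Etv5 at 51.9, 56.9, 37.3 and 31.6 CPM against 84.9 to 118 CPM (-1.16 ± 0.21). Bhlhe41, a regulator of tissue macrophages, was at 39.8, 40.7, 51.6 and 40.5 CPM against 61.1 to 76.4 CPM (-0.65 ± 0.15). In replicates 23 and 24 alone 8 of the 32 surface genes and 3 of the 16 factors were lower (1.85% of all genes), and in replicates 26 and 27 24 and 9 (16.9%). Between the pairs 9 surface genes and 2 factors were lower in replicates 26 and 27 (8.2% of all genes) and 0 were higher (7.83%). For the 16 factors this is near the share of all genes. Smad3 was no longer called without microglia replicate 39 or 40 (adjusted p = 0.0587 to 0.0778). Bhlhe41 lost the call without microglia replicate 39 or 41 (adjusted p = 0.0641 to 0.0763). Bhlhe41 missed the threshold in the fit of the 7 libraries alone (adjusted p = 0.0514).

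**Figure D3:**
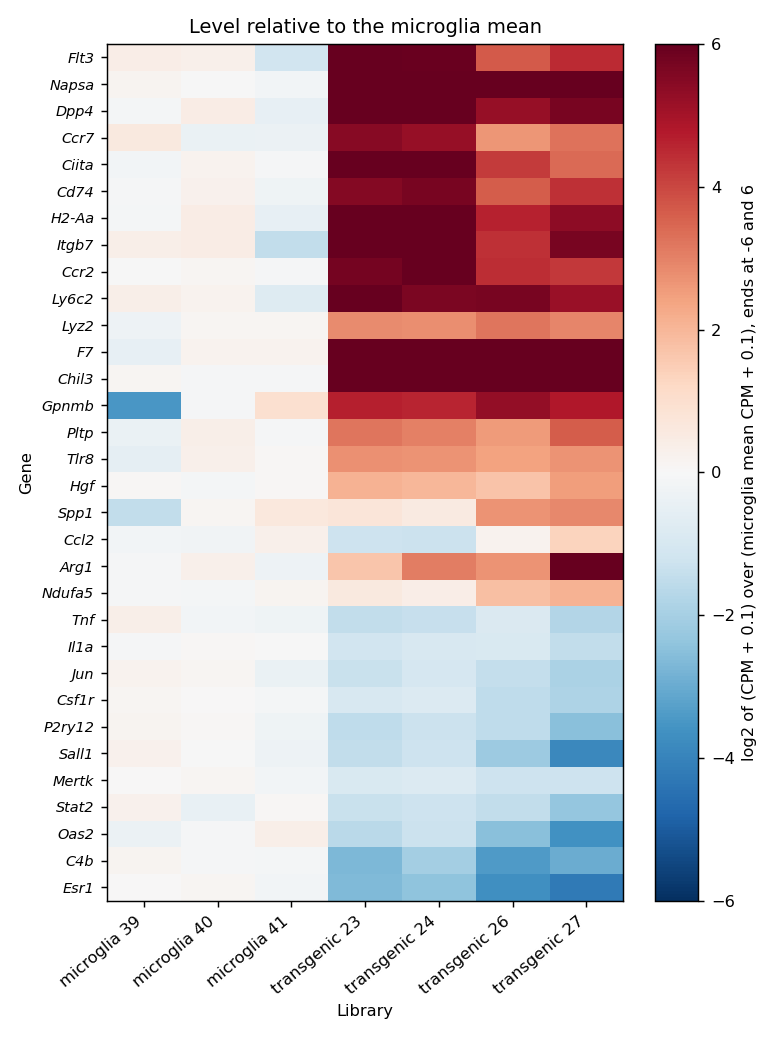
Level of 32 genes in each of 7 libraries relative to the microglia mean, as log2 of (CPM + 0.1) over (microglia mean + 0.1), with red above and blue below and the colour scale ending at -6 and 6. Dendritic cell and MHC class II genes are highest in transgenic replicates 23 and 24, Spp1, Ccl2 and Ndufa5 are higher in 26 and 27, and Sall1, Oas2 and Esr1 are lowest in replicate 27.

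Of 28 tested cytokine genes 6 were lower (4.79% of all genes) and 2 higher (8.88%), a share of higher genes no larger than that of all genes (3 and 3 in replicates 23 and 24, 3 and 7 in replicates 26 and 27). Tnf fell from 1065, 736 and 704 to 303, 323, 457 and 249 CPM (-1.33 ± 0.26, adjusted p = 0.00733) and Il1a, an alarm cytokine, from 1564, 1723 and 1569 to 730.3, 833, 862 and 572 CPM (-1.11 ± 0.18), and each was below microglia in all 4 libraries. The higher members were Tnfsf13, a B cell survival factor, at 2.87, 2.51, 2.94 and 1.78 CPM against 0.475 to 0.819 CPM (2.03 ± 0.33), and Il18bp, which neutralises interleukin 18, at 35.5, 30.3, 58.8 and 46.5 CPM against 15.4 to 24.6 CPM (1.12 ± 0.27). Of 25 chemokines 3 were lower and 6 higher (3 and 4 in replicates 23 and 24, 9 and 3 in replicates 26 and 27). Ccl3 and Ccl4, which attract monocytes and T cells, stood at 449.7, 490.1, 583 and 429.6 CPM against 963 to 1173 CPM (-1.13 ± 0.20) and at 869, 869, 999 and 598 CPM against 1788 to 1941 CPM (-1.15 ± 0.25). Ccl17, a chemokine of dendritic cells, was higher at 1.7, 1.32, 3.04 and 1.36 CPM against 0.0633 to 0.141 CPM (4.04 ± 0.47). Ccl2, the main ligand of Ccr2, was not called in all 4 (0.17 ± 0.54, adjusted p = 0.854) and the pairs went opposite ways: 51.1 and 50.8 CPM in replicates 23 and 24 (-1.27 ± 0.32), 142 and 309 CPM in replicates 26 and 27 (0.87 ± 0.30) and 109.6, 108 and 151 CPM in microglia. The difference of the pairs in Ccl2 was 2.14 ± 0.35. Il18bp lost significance without microglia replicate 39 or 40 (adjusted p = 0.101 to 0.128). Ccl4 was no longer called without microglia replicate 39 (adjusted p = 0.0534). For replicates 23 and 24, Ccl2 lost the call without microglia replicate 39, 40 or 41 or transgenic replicate 23 or 24 or parabiotic replicate 11 or 15 (adjusted p = 0.0526 to 0.242). For replicates 26 and 27, Ccl2 lost significance without microglia replicate 39 or 40 or transgenic replicate 23, 24 or 27 or parabiotic replicate 11 or 15 (adjusted p = 0.0538 to 0.499). Between the pairs, Ccl2 was no longer called without transgenic replicate 23 or 24 (adjusted p = 0.057 to 0.0661). Ccl2 missed the threshold in replicates 23 and 24 without the low-count filter or in the fit of the 7 libraries alone (adjusted p of up to 0.0742). Ccl2 missed the threshold in replicates 26 and 27 without the low-count filter or in the fit of the 7 libraries alone or with RLE size factors or in limma-voom (adjusted p of up to 0.0925).

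Interferon-stimulated genes were lower in 14 of 36 (4.79% of all genes) and higher in 0, with a median log2 fold change of -1.21. In replicates 23 and 24, 6 were lower (1.85% of all genes), and in replicates 26 and 27, 12 (16.9%). Stat2, which carries the interferon signal to the nucleus, fell from 299, 180.3 and 259 to 96.6, 104, 87.6 and 48.5 CPM (-1.55 ± 0.25, adjusted p = 0.00283), the antiviral synthetase Oas2 from 60.9, 74.4 and 100 to 25.2, 32, 13.7 and 6.19 CPM (-2.03 ± 0.43), the guanylate-binding protein Gbp2 from 87.5, 57.7 and 61 to 24.6, 29, 36.4 and 17.6 CPM (-1.35 ± 0.26) and the RNA sensor Ifih1 from 105, 84.7 and 106 to 50.8, 55.6, 65.5 and 45.6 CPM (-0.85 ± 0.16). The median member stood at 38.6% and 43.0% of the microglia mean in replicates 23 and 24, 73.4% in replicate 26 and 15.7% in replicate 27, so the second pair was not alike. The letters of the interferon response element (GAAA, any 2 bases, GAAA, on either strand) occurred within 250 bases upstream in 14 of the 27 tested members with a window, against 2.98% of all windows. Here too a gene was counted if any of its windows held the letters. Of 24 MHC class I genes 7 were lower and 0 higher (0 and 2 in replicates 23 and 24, 0 and 12 in replicates 26 and 27), the nonclassical chain H2-Q6 at 64.6, 54.3, 23.8 and 23.9 CPM against 105 to 178 CPM (-1.80 ± 0.36), where reads may be shared with other H2-Q copies. Nlrc5, the class I transactivator, was lower in replicates 26 and 27 (24.7 and 19.4 CPM, -1.83 ± 0.15) and not called in replicates 23 and 24 (57.5 and 59.7 CPM against 72.4 to 83.7 CPM, -0.42 ± 0.14, adjusted p = 0.115), and the pairs differed by -1.41 ± 0.16 (adjusted p = 0.00215).

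Immediate early and heat shock genes, a known response to tissue dissociation, were lower in 10 of 33 and higher in 2 (5 and 6 in replicates 23 and 24, 1 and 18 in replicates 26 and 27). Jun stood at 1761, 1689.6 and 1159 CPM in microglia and 601, 756, 574 and 415 CPM in transgenic CD11c cells (-1.39 ± 0.23), Ier5 at 829, 825 and 599 and 364, 375, 318 and 324 CPM (-1.12 ± 0.15) and Egr1 at 2705, 2613 and 1711 and 804, 1008, 923 and 404 CPM (-1.58 ± 0.34, adjusted p = 0.0121). Nr4a2, a nuclear receptor, was higher at 161, 165, 30.5 and 129 CPM against 4.72, 7.58 and 12.9 CPM (3.86 ± 0.56), and so was Fosl2 (216, 226, 67.8 and 209.8 CPM against 71.5, 75.2 and 75.3 CPM, 1.28 ± 0.34), in which replicate 26 lay just below microglia. The median member stood at 77.0%, 86.1%, 70.5% and 52.3% of the microglia mean. The part of dissociation in these levels was not tested. Of 22 tested NF-kappaB genes 3 were lower and 2 higher, the latter near the share of all genes (8.88%) (3 and 2 in replicates 23 and 24, 2 and 10 in replicates 26 and 27), the inhibitor Nfkbiz at 1029, 1029.9, 989.7 and 749 CPM against 1692 to 2035 CPM (-0.99 ± 0.19) and Traf1, an adaptor of TNF receptors, at 76, 69.3, 10.4 and 35.1 CPM against 3.39 to 4.77 CPM (3.59 ± 0.58). Egr1 lost the call without microglia replicate 39 or 40 (adjusted p = 0.0546 to 0.0601). Fosl2 lost significance without microglia replicate 39, 40 or 41 (adjusted p = 0.08 to 0.124). Fosl2 missed the threshold in limma-voom or in the fit of the 7 libraries alone (adjusted p of up to 0.069).

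Among lipid handling and damage-associated genes more members were higher than lower in each pair. Of 28 tested lipid genes 13 were higher and 0 lower (12 and 1 in replicates 23 and 24, 15 and 2 in replicates 26 and 27), with a median of 0.89. Pltp, which transfers phospholipids between lipoproteins, rose from 16.7, 28.8 and 21.4 to 204, 182, 132 and 280 CPM (3.16 ± 0.29, adjusted p = 0.000119), the nuclear receptor Nr1h3 (LXR alpha), a sensor of oxysterols, from 1.16, 2.39 and 3.1 to 15.6, 16.5, 11.7 and 9.21 CPM (2.58 ± 0.34), and the lysosomal acid lipase Lipa from 157, 239 and 324 to 649.8, 685, 799 and 603 CPM (1.51 ± 0.23). Fabp4, a fatty acid carrier, differed between the pairs (2.04 and 2.45 and 7.79 and 27.4 CPM, 2.97 ± 0.58) and stood at 0.0565 to 0.246 CPM in microglia. Of 28 damage-associated phagocyte genes 9 were higher and 1 lower (9 and 1 in replicates 23 and 24, 14 and 1 in replicates 26 and 27). Gpnmb, a glycoprotein of lipid-laden macrophages, stood at 8.08, 85.3 and 178 CPM in microglia, which themselves spread widely, and 2279.8, 2135, 3469 and 2492 CPM in transgenic CD11c cells (4.84 ± 0.80, adjusted p = 0.00327). Lgals1 (galectin 1) rose to 189.7, 166, 389 and 466 CPM from 33.6, 50.5 and 80.7 CPM (2.46 ± 0.41) and Cybb, the catalytic chain of the phagocyte oxidase, to 718, 655, 638 and 509 CPM from 134, 191 and 332 CPM (1.53 ± 0.27). Csf1, the Csf1r ligand, was the lower one (454, 496, 306 and 164 CPM against 594 to 1019 CPM, -1.12 ± 0.33). Spp1 (osteopontin) was the most abundant transcript per kilobase of exon in replicates 26 and 27, at 19450 and 21940 CPM per kilobase. Its CPM were 1722, 5342 and 7546 in microglia, 8047 and 7179 in replicates 23 and 24 and 32054 and 36158 in replicates 26 and 27, and it was called for the second pair (2.81 ± 0.47) and not for all 4 (2.10 ± 0.65, adjusted p = 0.0539). Apoe, the lipid carrier, ranked first per kilobase in replicates 23 and 24, at 10230 and 10310 CPM per kilobase. Csf1 was no longer called without microglia replicate 39, 40 or 41 or transgenic replicate 26 or parabiotic replicate 3, 11 or 15 (adjusted p = 0.0638 to 0.153). Between the pairs, Fabp4 lost the call without transgenic replicate 23 or 24 (adjusted p = 0.0909 to 0.0926). Csf1 missed the threshold without the low-count filter or in the fit of the 7 libraries alone (adjusted p of up to 0.0914).

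Of 25 tested efferocytosis genes, which serve the clearance of dead cells, 6 were higher and 2 lower (6 and 2 in replicates 23 and 24, 6 and 7 in replicates 26 and 27). Cd93, a receptor of myeloid cells, rose from 10, 10.7 and 6.14 to 175, 151, 50.1 and 189 CPM (3.98 ± 0.44) and Cd300a, an inhibitory receptor for exposed phosphatidylserine, from 79.3, 112 and 87.9 to 256, 262, 178 and 176 CPM (1.23 ± 0.20), while the kinase Mertk, which microglia use to engulf dead cells, fell from 698, 751 and 603 to 359.6, 382, 292 and 292 CPM (-1.05 ± 0.15). In complement, 2 of 21 tested members were higher and 6 lower (2 and 3 in replicates 23 and 24, 4 and 7 in replicates 26 and 27). Cfp (properdin), which stabilises the alternative pathway convertase, stood at 104, 127, 38 and 136 CPM against 7.88 to 15.4 CPM (3.28 ± 0.45). Of 24 Toll-like receptor and adaptor genes 2 were higher, a share near that of all genes (8.88%), and 3 lower (2 and 1 in replicates 23 and 24, 2 and 8 in replicates 26 and 27). Tlr8, a sensor of single-stranded RNA, stood at 4.94, 8.87 and 7.6 CPM in microglia and at 47.8, 47.4, 38.2 and 47.3 CPM in transgenic CD11c cells (2.66 ± 0.21, adjusted p = 5.87e-05). Its relative Tlr7 was lower in replicates 23 and 24 (240.2 and 250.3 CPM against 399 to 500.5 CPM, -0.83 ± 0.18) and not called in all 4 (-0.60 ± 0.18, adjusted p = 0.0527). For replicates 23 and 24, Tlr7 lost significance without microglia replicate 39 or transgenic replicate 23 or 24 (adjusted p = 0.0566 to 0.163).

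Hormone and neurotransmitter receptors gave 9 higher and 9 lower genes of 25 tested, Esr1 and Adrb1 among the lower (8 and 7 in replicates 23 and 24, 8 and 10 in replicates 26 and 27). Htr7, a serotonin receptor, had no count in any microglia library and 14.7, 13.6, 2.61 and 14.3 CPM in transgenic CD11c cells. With 3 counts taken as the limit for all microglia libraries together, this was at least 372-fold higher, at least 469-fold in replicates 23 and 24 and at least 284-fold in replicates 26 and 27. This limit and the counting intervals cover counting error only. Rara, a retinoic acid receptor, rose to 27.6, 26.9, 9.69 and 37.2 CPM from 1.44, 2.76 and 1.68 CPM (3.69 ± 0.43) and Ptger2, a prostaglandin receptor, to 5.27, 4.93, 6.78 and 20.7 CPM from 0.678, 0.768 and 1.23 CPM (3.40 ± 0.56). Adora3, an adenosine receptor, was lower (15.7, 19.5, 15.3 and 13.1 CPM against 35.7 to 39.2 CPM, -1.23 ± 0.21). Of 24 trophic factor genes tested 7 were higher and 3 lower (3 and 1 in replicates 23 and 24, 7 and 4 in replicates 26 and 27). Hgf, a growth factor for epithelium and neurons, stood at 10.3, 9.21 and 10.4 CPM in microglia and 42.9, 40.4, 32.6 and 56.5 CPM in transgenic CD11c cells (2.11 ± 0.21, adjusted p = 0.00017), and Vegfa, which drives vessel growth, at 2.97, 21.1 and 40 and 189, 207, 65 and 208 CPM (2.97 ± 0.71). The arginine transporter Slc7a2 rose from 0.565, 0.583 and 0.823 to 7.42, 5.88, 4.3 and 8.01 CPM (3.28 ± 0.32) and Pla2g7, which degrades platelet-activating factor, from 47.2, 47.9 and 50 to 412, 358, 549 and 1079 CPM (3.63 ± 0.38). Hgf and Vegfa were each lowest in replicate 26 among the transgenic libraries. Vegfa was no longer called without microglia replicate 40 (adjusted p = 0.0947). Vegfa missed the threshold without the low-count filter (adjusted p = 0.101).

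Replicates 26 and 27 had lower dendritic cell and MHC class II genes, as given above, and higher genes of the respiratory chain. The 8 genes of largest positive difference were Pcdhga12, Mt2, Postn, Saa3, Chil3, Ccl7, Spp1 and Ccl2, and those of largest negative difference included Siglecg, Cd209a, Itgae, Ciita, Kit, Apba1 and Kmo. Pcdhga12, a protocadherin whose 3′ exons are shared with neighbouring genes so that its reads may be split among them, stood at 2.32, 2.76 and 2.79 CPM in microglia and 2.2, 2.32, 92.1 and 151 CPM in transgenic CD11c cells (5.74 ± 0.38, adjusted p = 0.000337). Mt2, a metal-binding protein, stood at 2.6, 1.62, 15.8 and 28 CPM and Postn, a matrix protein of scars, at 3.46, 5.88, 15.7 and 75.5 CPM in the 4 libraries (3.38 ± 0.52 and 3.29 ± 0.68). Siglecg, an inhibitory receptor, was at 21.3, 20.8, 2.58 and 2.48 CPM (-3.06 ± 0.31), and Itgae (CD103), an integrin of cDC1, at 93.5, 61.6, 15.8 and 6.75 CPM (-2.78 ± 0.38). Replicates 26 and 27 also differed from each other. Arg1, the arginase of wound macrophages, stood at 4.8, 13, 9.94 and 365 CPM against 1.38, 1.78 and 1.17 CPM in microglia (6.08 ± 1.61). The number of calls between the pairs moved widely with 1 library left out. It fell without replicate 23 or 24 and rose without replicate 26 or 27. Each of these fits leaves a pair with 1 library, so they cannot show whether a call rested on the library left out. In all, 102 of the 125 named genes called between the pairs lost the call without 1 library. Saa3, an acute phase protein, and Ccl7, a monocyte chemokine, stood at 10.3, 6.9, 28.4 and 129 and 8.26, 9.79, 19.9 and 113 CPM (3.20 ± 0.92 and 2.88 ± 0.70). Kmo, an enzyme of tryptophan breakdown, stood at 45.1, 45.2, 10 and 4.53 CPM (-2.63 ± 0.40). Apba1, an adaptor protein, stood at 24.8, 26.9, 5.21 and 3.09 CPM (-2.64 ± 0.28). Chil3 and Spp1 differed by 3.14 ± 0.69 and 2.16 ± 0.53. Arg1 lost the call without microglia replicate 39, 40 or 41 (adjusted p = 0.0948 to 0.13). Between the pairs, Mt2 lost significance without transgenic replicate 24 (adjusted p = 0.0638). Between the pairs, Postn, Chil3 and Spp1 were no longer called without transgenic replicate 23 or 24 (adjusted p = 0.0865 to 0.168). Between the pairs, Saa3 lost the call without microglia replicate 41 or transgenic replicate 23, 24 or 27 or parabiotic replicate 15 (adjusted p = 0.0502 to 0.24). Between the pairs, Ccl7 lost significance without transgenic replicate 23, 24 or 27 (adjusted p = 0.0893 to 0.146). Arg1 missed the threshold in limma-voom or without the low-count filter or in the fit of the 7 libraries alone (adjusted p of up to 0.197). Saa3 and Ccl7 missed the threshold between the pairs in limma-voom or without the low-count filter or in the fit of the 7 libraries alone (adjusted p of up to 0.182). Chil3 missed the threshold between the pairs without the low-count filter (adjusted p = 0.087). Spp1 missed the threshold between the pairs without the low-count filter or in the fit of the 7 libraries alone (adjusted p of up to 0.0998).

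Nuclear genes of the respiratory chain set the pairs apart. Of 34 members 10 were higher in all 4 libraries (8.88% of all genes), 1 in replicates 23 and 24 (6.75%) and 33 in replicates 26 and 27 (22.3%). Between the pairs 25 were higher in replicates 26 and 27 than in 23 and 24 (7.83%), with 0 lower in each of these comparisons. Ndufa5, a subunit of complex I, stood at 11.9, 11.5 and 13.8 CPM in microglia and 18.9, 16.3, 43.6 and 53.4 CPM in transgenic CD11c cells (1.46 ± 0.18 between the pairs, adjusted p = 0.00278). Ndufv2, another subunit of complex I, stood at 75.1, 73.2, 122 and 168 CPM against 42 to 50.4 CPM and Uqcrb, of complex III, at 30.6, 23.1, 56.7 and 65.8 CPM against 15.7 to 19.8 CPM. Over all 4 libraries Ndufa5 stood at 1.42 ± 0.38, Ndufv2 at 1.23 ± 0.27 and Uqcrb at 1.32 ± 0.32. Of the 34 genes 26 have exons in the shortest of 4 equal bins of protein-coding genes, and the difference between the pairs moved with exon length over all protein-coding genes. In the bin with the shortest exons (255 to 2823 bases, 3170 genes) the median log2 difference of replicates 26 and 27 from 23 and 24 was 0.31, and it was 0.09, -0.07 and -0.29 in the following bins, the last one starting at 6825 bases. Against microglia the medians of the shortest and longest bins were 0.45 and -0.29 in replicates 26 and 27 and 0.09 and -0.03 in replicates 23 and 24. Of the genes called between the pairs 460 were higher and 85 lower in the shortest bin, and 99 higher and 596 lower in the longest. The part of exon length in the calls of single genes was not tested. Ndufa5 was no longer called without microglia replicate 39, 40 or 41 or transgenic replicate 26 or 27 or parabiotic replicate 11 or 15 (adjusted p = 0.0503 to 0.135). Ndufv2 lost the call without microglia replicate 39 or 40 (adjusted p = 0.0634 to 0.0768). Uqcrb lost significance without microglia replicate 39, 40 or 41 or transgenic replicate 26 (adjusted p = 0.0505 to 0.111). Ndufa5 missed the threshold in limma-voom or in the fit of the 7 libraries alone (adjusted p of up to 0.0735). Uqcrb missed the threshold in the fit of the 7 libraries alone (adjusted p = 0.0574).

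**Figure D4:**
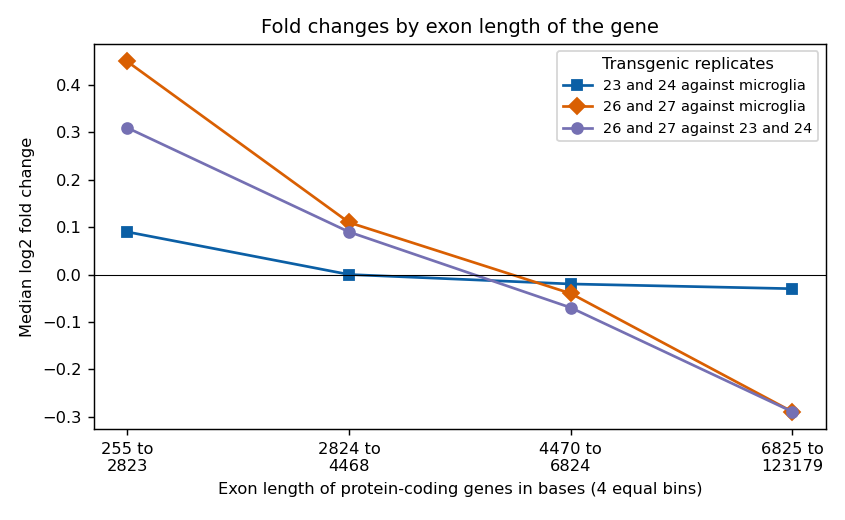
Median log2 fold change of protein-coding genes in 4 equal bins of exon length (bases), for each pair of transgenic libraries against microglia and for the pairs against each other. The lines for replicates 26 and 27 run from 0.45 and 0.31 in the shortest bin to -0.29 in the longest, while that of replicates 23 and 24 runs from 0.09 to -0.03.

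Few cell cycle genes were called over all 4 libraries. Of 36 mitosis genes 1 was higher, Cenpa, the centromeric histone, at 86.1, 86.1, 88.9 and 81.3 CPM against 30.2, 42.9 and 56.3 CPM (0.99 ± 0.20). Of 37 replication genes 1 was higher, the cell cycle factor E2f2, at 42.3, 37.4, 33.7 and 37 CPM against 25.8, 18.7 and 29.7 CPM (0.61 ± 0.17), and 0 genes of either list were lower. In replicates 23 and 24 1 gene of each list was higher (6.75% of all genes), and in replicates 26 and 27 11 replication and 3 mitosis genes were (22.3%). The median replication gene stood at 93.9%, 94.0%, 174.6% and 95.5% of the microglia mean in replicates 23, 24, 26 and 27. The median mitosis gene stood at 90.6%, 86.8%, 213% and 93.8%, so in both lists only replicate 26 was raised. Between the pairs 4 replication and 3 mitosis genes were higher in replicates 26 and 27 (7.83%) and 0 lower. Microglia replicates and transgenic replicate 26 spread widely here, as the summed level of the mitosis genes was 840.8, 1217 and 1852 CPM in microglia and 1206, 1162, 2779 and 1272 CPM in transgenic CD11c cells. Cenpa was no longer called without microglia replicate 40 (adjusted p = 0.0578). E2f2 lost the call without microglia replicate 39 or 40 or transgenic replicate 23 or 24 or parabiotic replicate 3, 11 or 15 (adjusted p = 0.0532 to 0.217). E2f2 missed the threshold with RLE size factors or with upper quartile scaling or without the low-count filter or in the fit of the 7 libraries alone (adjusted p of up to 0.103).

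**Figure D5:**
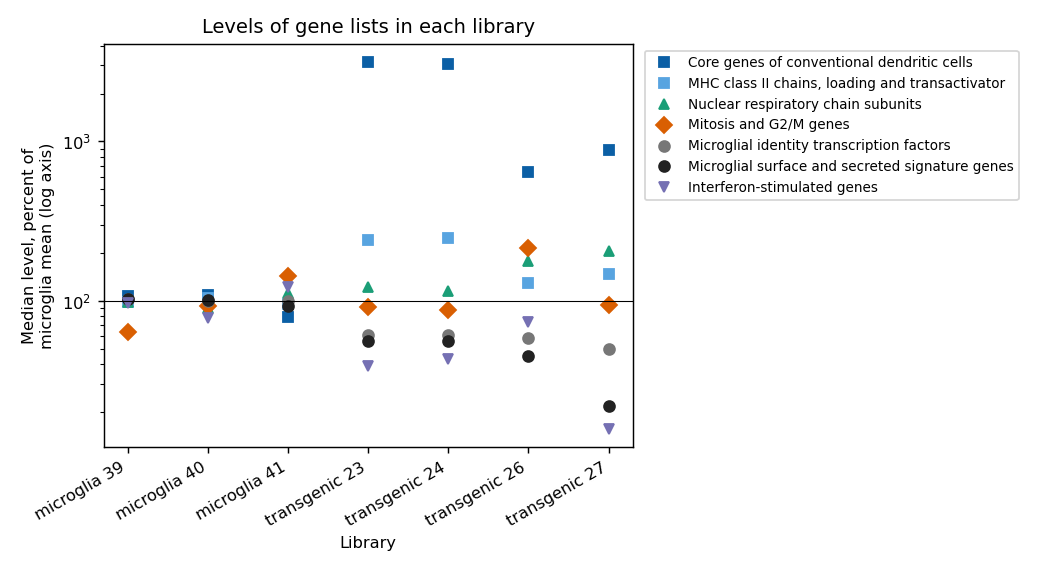
Median level of the tested members of 7 gene lists in each library, in percent of the microglia mean (log axis), with 1 point per list and library and a line at 100 percent. Microglial surface genes stand at 55.7, 55.7, 44.7 and 21.9 percent in transgenic replicates 23, 24, 26 and 27, and core dendritic cell genes at 3141, 3062, 639 and 887 percent.

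Markers of other cell types were measured beside these lists. Border-associated macrophages, which line vessels and meninges and also express Cx3cr1, were covered by 23 tested genes, of which 7 were higher and 5 lower (6 and 4 in replicates 23 and 24, 8 and 7 in replicates 26 and 27). Their 6 defining markers summed to 203 to 308 CPM in microglia and to 328, 354, 468 and 395 CPM in transgenic replicates 23, 24, 26 and 27. Ms4a7 made up 269.8, 259, 376 and 140.3 CPM of these transgenic sums and at most 70.8 CPM in microglia. Mrc1 stood at 92.9, 153 and 81.6 CPM in microglia and 28.3, 61.3, 19.6 and 99.3 CPM in transgenic CD11c cells (-1.07 ± 0.46, adjusted p = 0.133). Cbr2 was not called either (-0.54 ± 0.39, adjusted p = 0.362). Pf4, a chemokine of these cells and of platelets, stood at 9.66, 19.3 and 16.2 CPM in microglia and 19.3, 21.6, 59.5 and 101 CPM in transgenic CD11c cells (1.74 ± 0.53, adjusted p = 0.0499), with 2.41 ± 0.29 in replicates 26 and 27 and 0.44 ± 0.29 (adjusted p = 0.442) in replicates 23 and 24. Cd163 stood at 45.2, 49.4 and 17.6 CPM in microglia and 0.977, 3.59, 0.936 and 26.3 CPM in transgenic CD11c cells, and Lyve1 at 16.7, 17.6 and 8.61 and 0.112, 0.135, 0.0253 and 3.8 CPM, so the microglia libraries and transgenic replicate 27 held more of both than replicates 23, 24 and 26. Neither was called in all 4 (-2.23 ± 0.94, adjusted p = 0.129, and -3.79 ± 1.26, adjusted p = 0.0656). Ms4a7, which these cells share with monocyte-derived macrophages, was higher at 269.8, 259, 376 and 140.3 CPM against 14, 44.7 and 70.8 CPM (2.60 ± 0.50). The 4 defining neutrophil markers summed to 0.032 to 0.522 CPM in microglia and to 0.474, 0.189, 2.96 and 18.0 CPM in transgenic replicates 23, 24, 26 and 27, of which S100a8 made up 0.419, 0.189, 2.94 and 17.8 CPM, and Ngp was at 0 in all 4. Defining T cell genes (Cd3e, Cd3d, Trac) summed to at most 0.399 CPM in any of the 7 libraries and natural killer cell genes (Ncr1, Klrb1c) to at most 0.921 CPM. The wider neutrophil list held 4 higher (8.88% of all genes) and 0 lower genes (4.79%) of 12 tested. The T cell list held 2 and 0 of 7, and the natural killer cell list 3 and 0 of 6. In replicates 23 and 24 these lists held 3, 2 and 3 higher genes and 0 lower. In replicates 26 and 27 they held 6, 2 and 3 higher and 1, 1 and 0 lower. The lectin receptors Klrk1 and Klrd1, which natural killer cells share with some dendritic cells, stood at 38, 37.4, 10.1 and 16.7 and 39, 26, 8.58 and 10.3 CPM against 0.158 to 0.553 and 0.158 to 0.798 CPM. Of B lineage genes 4 of 13 tested were higher and 0 lower (6 and 0 in replicates 23 and 24, 4 and 3 in replicates 26 and 27). Igha had 1 count in the microglia libraries and 17, 26.2, 4.45 and 5.46 CPM in transgenic CD11c cells, a ratio of 1286 (95% counting interval 230.5 to 50800). The B cell markers Ms4a1 and Cd79a stood at 0, 0.184 and 0.475 and 0.311, 0.215 and 0.19 CPM in microglia and at 1.4, 0.782, 0.734 and 0.146 and 0.279, 0.162, 0.0759 and 0.0244 CPM in transgenic CD11c cells. Astrocyte genes were lower in 2 of 10 tested (0 and 2 in replicates 23 and 24, 0 and 4 in replicates 26 and 27) and neuronal genes in 2 of 6 (0 and 0 in replicates 23 and 24, 0 and 2 in replicates 26 and 27). Gfap, the astrocyte filament, stood at 17.9, 23.2 and 9.88 CPM in microglia and 4.94, 6.34, 4.96 and 6.24 CPM in transgenic CD11c cells (-1.60 ± 0.27), and Snap25, of synapses, at 1.53, 1.72 and 1.93 and 0.0279, 0.755, 0.481 and 0.56 CPM. Of 13 plasmacytoid dendritic cell genes 4 were higher and 0 lower (5 and 0 in replicates 23 and 24, 2 and 2 in replicates 26 and 27). Their 3 defining markers summed to 568.5 to 859 CPM in microglia and to 284, 279, 125 and 35.6 CPM in transgenic CD11c cells. Nearly all of this was Siglech, also a microglial signature gene. Ccr9 was higher (2.74, 2.29, 0.506 and 0.487 against 0.127 to 0.367 CPM, 2.42 ± 0.71, adjusted p = 0.0446). Its call ended without each of 8 libraries in turn, in limma-voom and in the fit of the 7 libraries alone. Ly6d stood at 0.474, 0.297, 0 and 0 CPM against 0 to 0.0614 CPM. Of 10 oligodendrocyte genes 1 was lower and 0 higher (1 and 0 in replicates 23 and 24, 0 and 2 in replicates 26 and 27). Hbb-bs, a haemoglobin chain of red cells, was higher at 1.48, 1.51, 1.8 and 1.05 CPM against 0, 0 and 0.127 CPM (5.05 ± 0.84, adjusted p = 0.00351). Of 11 vascular genes tested edgeR called 0 in all 4 (0 and 0 in replicates 23 and 24, 1 and 2 in replicates 26 and 27). The part of such cells in the differences above was not tested. Pf4 lost significance without microglia replicate 39, 40 or 41 or transgenic replicate 26 or 27 or parabiotic replicate 3, 11 or 15 (adjusted p = 0.0727 to 0.19). Pf4 missed the threshold with RLE size factors or with upper quartile scaling or in limma-voom or without the low-count filter or with a filter of 5 CPM or in the fit of the 7 libraries alone (adjusted p of up to 0.144).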

How the data were processed

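Sorted cells of 10 libraries were measured by RNA-seq, and 7 enter the comparison. The authors deposited 1 table of raw counts per gene, made with STAR 2.5.3a on GRCm38 after FastQC 0.11.5, per the submitters' processing notes, which also name DESeq2. Which program counted the reads, over which annotation and with what use of strand, is not given in the sources used, so reads of overlapping, antisense and near-identical genes may be shared. One parabiotic library lacks a cell type in its labels and was placed by its title. From the deposited counts, genes were filtered with filterByExpr by group (13434 of 28585 removed), scaled by TMM and tested with edgeR 4.0.16 (robust quasi-likelihood F test, R 4.3.3, Benjamini-Hochberg adjustment over 15151 genes). A fit with 3 group means over all 10 libraries gave the comparison of all 4, and a fit with 4 means gave those of the pairs. The biological coefficient of variation was 0.317 and 0.256. The fits were also run on simulated counts with known changes, and the outcome is not reported here. The simulated spread of a gene was the same in every library, so this run does not cover libraries that vary unequally. Alternatives were DESeq2 1.42.0, limma-voom (limma 3.58.1), RLE and upper quartile scaling, no filter and a filter of 5 CPM in 3 libraries, non-robust dispersions, the 7 libraries alone, a term for the block of library numbers, and each library left out. The 8 highest and 8 lowest genes named are called genes, predicted ones aside, whose higher group averaged 20 CPM or more and whose libraries did not overlap. From 47 gene lists up to 4 called members of lowest p in the direction with more calls and up to 2 in the other were taken, and up to 2 in each direction for replicates 23 and 24 against microglia and for the pairs. Defining markers of cell types may also be named, and some genes these rules allow are not reported here. Members and lists were chosen with earlier results of these data known. Promoter windows come from RefSeq on GRCm38.p6.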

Additional observations from a re-analysis of the deposited data

Results flagged for a closer look

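Of the genes given here 161 were examined, and in 23 of them 1 transgenic library stood far from the other 3. Its gap to its nearest neighbour, as a share of the range of the 4 libraries, was above the critical value of Dixon's test at 95%. For 4 values drawn alike from 1 normal distribution, about 1 in 20 such groups would be set apart. The ratio was taken on CPM, and some genes were named for differences between the pairs. The 23 can therefore not be compared with that rate. Replicate 27 was the library set apart in 17 of the 23 genes, as the highest in 14 and the lowest in 3. As the highest, its gap made up 0.977 of the range for Arg1, 0.971 for Lyve1, 0.927 for Cd24a, 0.927 for Ctsk, 0.896 for Chil3, 0.895 for Cd163, 0.888 for Ccl7, 0.883 for Ptger2, 0.876 for F10, 0.864 for Timp1, 0.861 for Slc48a1, 0.844 for S100a8, 0.831 for Postn and 0.83 for Arg2. These include genes of border-associated macrophages, a neutrophil gene and arginase. As the lowest, its gap was 0.915 for Tlr3, 0.857 for Nfkbiz and 0.842 for Clec12a. Replicate 26 was the lowest in 5 genes, with 0.945 for Tlr8, 0.916 for Il1r2, 0.91 for Htr7, 0.899 for Fosl2 and 0.862 for Vegfa, and the highest in Bhlhe41 with 0.924. Neither replicate 23 nor replicate 24 was set apart in any of these genes. As these replicates were close to each other, a gap to the nearest neighbour could hardly set either apart.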

How the results depend on the processing

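Numbers of called genes moved most with the samples in the fit. Over all 4 transgenic libraries the 1345 higher genes became 774 in the fit of the 7 libraries alone and 3380 with replicates 26 and 27 alone, and 563 to 1801 with 1 library left out. The 725 lower genes became 1464 with DESeq2, 455 with the 7 libraries alone, 280 with a term for the block of library numbers, 2567 with replicates 26 and 27 alone, and 165 to 883 with 1 library left out. The term for library numbers and the use of replicates 26 and 27 alone give, by construction, the comparisons of 1 pair with microglia and are no independent alternatives. For replicates 23 and 24 the 1023 higher genes ranged from 527 to 1590 with 1 library left out. Their 280 lower genes became 767 with DESeq2, 166 with the 7 libraries alone, and 20 to 996 with 1 library left out. For replicates 26 and 27 the 3380 higher and 2567 lower genes ranged from 2474 to 3763 and from 1863 to 3234. Between the pairs the 1187 higher genes became 1806 with DESeq2, 495 with the 7 libraries alone, and 26 to 2374 with 1 library left out, and the 1243 lower genes became 664 with the 7 libraries alone and 198 to 2190 with 1 left out. Where a pair keeps 1 library, that library is assumed to vary like the others, and the cause of these shifts was not tested. Of the named genes called, 93 of 214 over all 4 libraries, 83 of 178 for replicates 23 and 24, 41 of 245 for replicates 26 and 27 and 102 of 125 between the pairs lost the call without 1 library, and 66, 50, 23 and 51 under another setting. In 3 results not called with all libraries, a value of opposite sign was called when 1 library was left out. Between the pairs B3gnt5 ranged from -2.85 (without replicate 27, adjusted p = 0.00731) to 1.35 (without replicate 26, adjusted p = 0.0359), with all libraries 0.38 ± 0.91, and Pfkp from -1.28 (without replicate 27, adjusted p = 0.027) to 0.74 (without replicate 26, adjusted p = 0.0984), with all libraries 0.02 ± 0.51. Against microglia the neuronal marker Rbfox3 ranged in replicates 26 and 27 from -3.24 (without replicate 26, adjusted p = 0.0107) to 1.30 (without replicate 27, adjusted p = 0.0782), with both 0.34 ± 0.90. No paired analysis was possible because the groups share no replicate numbers. Depth was 31534625 to 41730688 counts per library, and what limited the calls was not tested.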

Other observations

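Further gene lists held called genes, to be read against 8.88% higher and 4.79% lower of all genes over all 4 libraries. Of 26 genes of arginine, prostaglandin and oxidase metabolism 7 were higher and 2 lower (4 and 1 in replicates 23 and 24, 9 and 4 in replicates 26 and 27). Arg2, the mitochondrial arginase, stood at 0.254, 0.553 and 0.443 CPM in microglia and 6.2, 5.31, 3.34 and 20.1 CPM in transgenic CD11c cells (4.39 ± 0.70, edgeR adjusted p = 0.00267), highest in replicate 27. Ptgs1, the constitutive cyclooxygenase, fell from 847, 647 and 613 to 316, 354, 313 and 203 CPM (-1.24 ± 0.26). Of 20 iron and heme genes 5 were higher and 2 lower (2 and 0 in replicates 23 and 24, 6 and 3 in replicates 26 and 27). Blvra, the biliverdin reductase, rose from 35.9, 38.5 and 43.7 to 65.4, 65.1, 91.6 and 104 CPM (1.05 ± 0.19), and the heme transporter Slc48a1 from 52.3, 49.4 and 54.5 to 82.7, 96.2, 100 and 207 CPM (1.22 ± 0.30), while the iron exporter Slc40a1 (ferroportin) fell from 178, 183 and 152 to 66.7, 97.2, 98.8 and 33 CPM (-1.21 ± 0.34). Hmox1, which breaks down heme, was called higher in replicates 26 and 27 (234 and 574 CPM against 148, 191 and 176 CPM, 1.24 ± 0.34) and stood at 139 and 171 CPM in replicates 23 and 24 (-0.15 ± 0.35, adjusted p = 0.876). Ptgs1 was no longer called without microglia replicate 39 (adjusted p = 0.0647). Slc48a1 lost the call without microglia replicate 39, 40 or 41 (adjusted p = 0.0566 to 0.0965). Slc40a1 lost significance without microglia replicate 39, 40 or 41 or transgenic replicate 23 or parabiotic replicate 3 or 11 (adjusted p = 0.0515 to 0.132). For replicates 26 and 27, Hmox1 was no longer called without microglia replicate 39 or transgenic replicate 27 (adjusted p = 0.0623 to 0.204). Slc40a1 missed the threshold in the fit of the 7 libraries alone (adjusted p = 0.0606).

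In TGF-beta signalling 3 of 25 tested genes were higher and 5 lower (1 and 3 in replicates 23 and 24, 4 and 10 in replicates 26 and 27). The inhibitory Smad7 fell from 210.5, 213 and 207 to 120.3, 107, 62.2 and 47.9 CPM (-1.32 ± 0.27, edgeR adjusted p = 0.0109), and it was lower in replicates 26 and 27 than in 23 and 24 (-1.05 ± 0.17). Tgfbi, a matrix protein of monocytes and macrophages, rose from 266, 156 and 227 to 978, 835, 523 and 2297 CPM (2.42 ± 0.44). Of 33 glycolysis and hypoxia genes 3 were higher and 3 lower (3 and 0 in replicates 23 and 24, 7 and 5 in replicates 26 and 27), the higher ones near the share of all genes (8.88%). Pfkp, a phosphofructokinase, rose from 5.28, 6.78 and 9.56 to 73.3, 78, 30.9 and 122 CPM (3.40 ± 0.43) and Ndrg1, a stress-induced gene, from 1.1, 1.38 and 1.2 to 13.8, 17.9, 7.74 and 21 CPM (3.62 ± 0.34), while the hexokinase Hk2 fell from 182, 235 and 239 to 133, 122, 82 and 45.3 CPM (-1.20 ± 0.30). Of 36 lysosomal genes 3 were higher and 1 lower over all 4 libraries, near the shares of all genes there. In replicates 23 and 24, 2 were higher and 0 lower. In replicates 26 and 27, 14 were higher (22.3% of all genes) and 2 lower (16.9%). Atp6v0d2, a proton pump subunit, stood at 0.169, 0.461 and 0.475 CPM in microglia and 4.38, 3.77, 10.7 and 12.6 CPM in transgenic CD11c cells (4.41 ± 0.55). Of 18 napsin and cathepsin genes 5 were higher and 2 lower (1 and 1 in replicates 23 and 24, 6 and 2 in replicates 26 and 27). Besides Napsa, the collagen-degrading Ctsk stood at 0.508, 0.276 and 0.095 CPM in microglia and 1.56, 3.37, 4.02 and 35.3 CPM in transgenic CD11c cells (5.20 ± 1.25), while Cst3 (cystatin C), an inhibitor of cathepsins, fell from 5321, 7392 and 5798 to 3788, 3540.1, 3421 and 1723 CPM (-0.98 ± 0.25). Hk2, Ctsk and Cst3 lost the call without microglia replicate 39, 40 or 41 (adjusted p = 0.0596 to 0.135). Between the pairs, Smad7 lost significance without transgenic replicate 23 (adjusted p = 0.0527). Hk2 and Cst3 missed the threshold in the fit of the 7 libraries alone (adjusted p of up to 0.0662). Ctsk missed the threshold in limma-voom or without the low-count filter (adjusted p of up to 0.122).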
